A study of Danio rerio with 4 samples.

Results

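The nuclear respiratory chain genes are the genes in chromosomes of the nucleus that encode proteins of the 5 mitochondrial complexes of oxidative phosphorylation, and they were taken here by symbol: nduf genes of the a, b, c, s and v series for complex I, sdh genes for complex II, uqcr genes for complex III, cox4 to cox8 genes for complex IV and atp5 genes for complex V. These symbols matched 95 of the 31388 genes in the table, and 89 of the 95 had at least 10 normalized counts in at least 2 of the 4 libraries. Of these 89 genes, 38 belonged to complex I (of 40 that matched), 8 to complex II (of 9), 8 to complex III (of 8), 15 to complex IV (of 18) and 20 to complex V (of 20). Apart from this minimum the choice went by symbol only, but it was made with earlier results of these data known.

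Poly(A)-enriched RNA of whole zebrafish embryos was sequenced at 2 days post fertilization (dpf), with 2 biological replicates per group. Control embryos are labelled wild type, and the fish lines in the methods are of the AB/TL background. MZtulp3 embryos lack both the maternal and the zygotic product of tulp3, which encodes a protein that carries cargo into the primary cilium. Their line carries the CRISPR/Cas9 allele uf3 on both chromosomes (tulp3 uf3/uf3), and the methods list that line with the EGFP reporter transgene li1Tg, which they also list as a strain of its own. Whether the control embryos of these libraries carried the transgene was not stated. MZtulp3 embryos were taken for RNA if they showed severe ventral body curvature, so genotype and this selection cannot be told apart, and the number of embryos per library was not given. The comparison asks which genes differ in level between such embryos and controls.

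Electrons from NADH enter the respiratory chain at complex I and electrons from succinate at complex II, pass over ubiquinone to complex III and over cytochrome c to complex IV, where they reduce oxygen. Complexes I, III and IV pump protons across the inner membrane, and complex V, the ATP synthase, uses the gradient to make ATP. Complex II is encoded in the nucleus alone, whereas the other complexes also contain subunits encoded by mitochondrial DNA. In vertebrate embryos, striated muscle is particularly rich in mitochondria.

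The libraries held 22589725 to 29735214 reads on genes, of which the 13 mitochondrially encoded genes took 57.9% and 41.0% in control and 52.6% and 71.1% in MZtulp3 libraries (replicate 1 before replicate 2, an order kept throughout). Outside these 13 genes, 8607137 to 14520032 reads remained, the fewest in MZtulp3 replicate 2 and the most in control replicate 2. Reads on the nuclear respiratory chain genes numbered 76886 to 108658. The targeted gene, tulp3, had reads in control replicate 2 alone (36), and its level therefore does not check the labels. Values below are normalized counts, which are reads divided by the size factor of the library, and differences are MZtulp3 minus control on the log2(normalized count + 2) scale, with the standard error (SE) of limma's moderated test. The SE of that test also draws on the variance of other genes, so it can exceed the spread of a gene's own replicates. Adjusted p-values are from that test with Benjamini-Hochberg adjustment over the 14674 genes that passed the same minimum as the 89.

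Genes of the respiratory chain were mostly higher in the MZtulp3 libraries, by a small amount, and no single gene passed the threshold. The difference was above 0 for 67 of the 89 genes and below 0 for 22, with a median of 0.24, whereas it was above 0 for 47.2% of all genes tested, whose median was -0.09. At an adjusted p under 0.05, limma called 0 of the 89 and 0% of all genes. DESeq2 called 0 of the 89 against 2.54% of all genes, limma-voom 0 of the 89 against 0.0886% and edgeR 0 of the 89 against 0%. At an unadjusted p under 0.05, 5 of the 89 were higher and 0 were lower, against 4.82% of all genes higher and 7.94% lower. The smallest adjusted p among the 89 was 0.379 by limma and 0.135 by DESeq2. By limma, 0.379 was also the smallest adjusted p of all genes tested, and genes with different unadjusted p share it.

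Both MZtulp3 libraries lay above both control libraries for 26 of the 89 genes (29.2%) and below both for 6 (6.74%). The remaining members overlapped between the groups. Among all genes tested the shares above and below were 20.0% and 23.3%. With a mean of at least 1000 normalized counts, they were 42.9% and 10.7% for members and 30.5% and 26.7% for all genes. With lower means, they were 23.0% and 4.92% for members and 19.3% and 23.0% for all genes. By complex, the genes of which both MZtulp3 libraries were above both control libraries numbered 9 of 38 in complex I, 2 of 8 in complex II, 2 of 8 in complex III, 7 of 15 in complex IV and 6 of 20 in complex V. Those below numbered 3, 1, 1, 0 and 1.

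**Figure D1:**
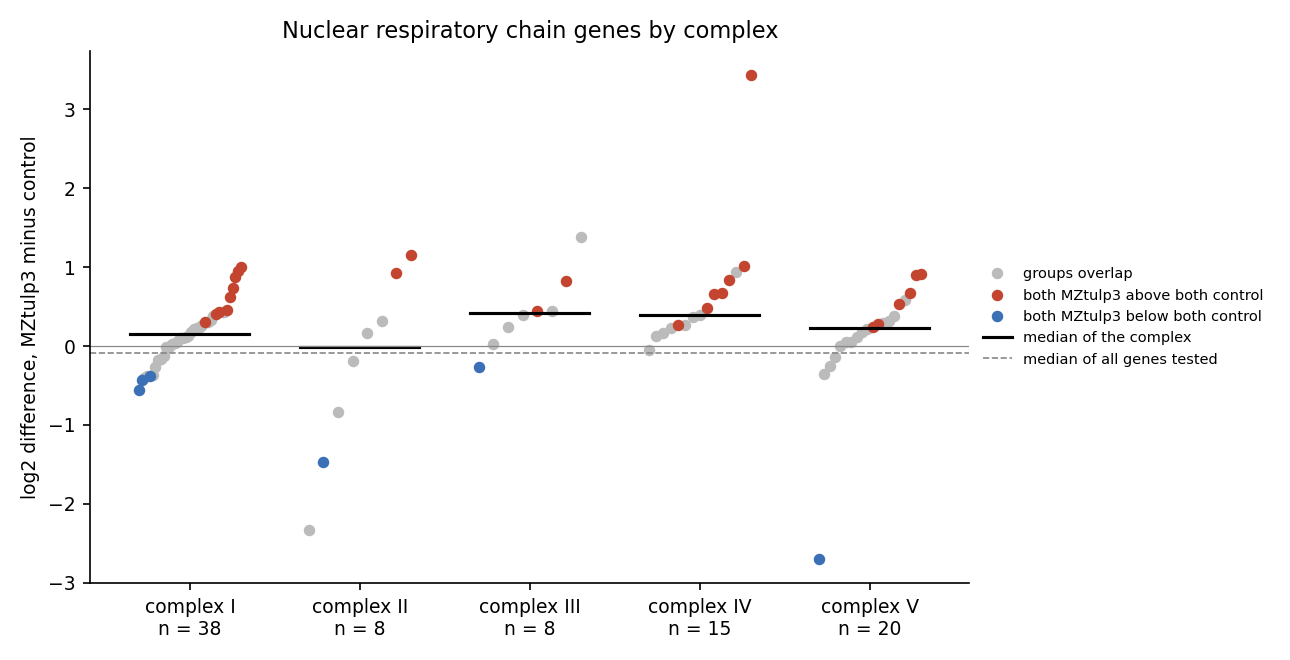
Each point is 1 of the 89 kept genes, placed by its difference between MZtulp3 and control on the log2(normalized count + 2) scale and grouped by complex, with black bars at the medians and a dashed line at the median of all 14674 genes tested. The medians of complexes III and IV lie highest, at 0.42 and 0.39, that of complex II is near 0, and red points (both MZtulp3 libraries above both controls) are more numerous than blue points (both below) in every complex.

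The medians by complex were 0.15 in complex I, where 26 of 38 genes were above 0, -0.01 in complex II (4 of 8), 0.42 in complex III (7 of 8), 0.39 in complex IV (14 of 15) and 0.23 in complex V (16 of 20). Genes with a mean of at least 1000 normalized counts had a median of 0.35, with 24 of 28 above 0, and the 61 genes with lower means a median of 0.21, with 43 above 0. Over all genes with a mean of at least 1000, 543 of 1012 were above 0, with a median of 0.06. The differences between complexes were not tested.

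The 4 libraries did not split cleanly by group. For each library, the median over the 89 genes of the log2 value minus the gene's own mean was 0.02 and -0.22 in control and 0.29 and -0.04 in MZtulp3 libraries, so that control replicate 1 lay above MZtulp3 replicate 2. MZtulp3 replicate 1 held the highest value of 45 of the 89 genes and control replicate 2 the lowest value of 39. Over all genes tested the corresponding medians were 0.14 and 0.17 in control and 0.12 and -0.01 in MZtulp3 libraries. With 2 libraries in each group, an exact permutation test of a single value cannot give a two-sided p below 0.333.

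The same per-library medians were 0.02 and -0.19 in control and 0.27 and -0.05 in MZtulp3 libraries for complex I. They were 0.28 and -0.22 against 0.39 and -0.33 for complex II, and 0.03 and -0.17 against 0.31 and -0.02 for complex V. In these 3 complexes the groups overlapped, although the 4 subunits of complex II, without its assembly factors, stood at 0.11 and -0.52 in control and 0.39 and 0.27 in MZtulp3 libraries and did not. For complex III the values were -0.06 and -0.21 in control and 0.24 and -0.03 in MZtulp3 libraries, and for complex IV -0.11 and -0.36 against 0.45 and 0.12. The groups did not overlap for complexes III and IV, by a narrow margin in complex III.

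**Figure D2:**
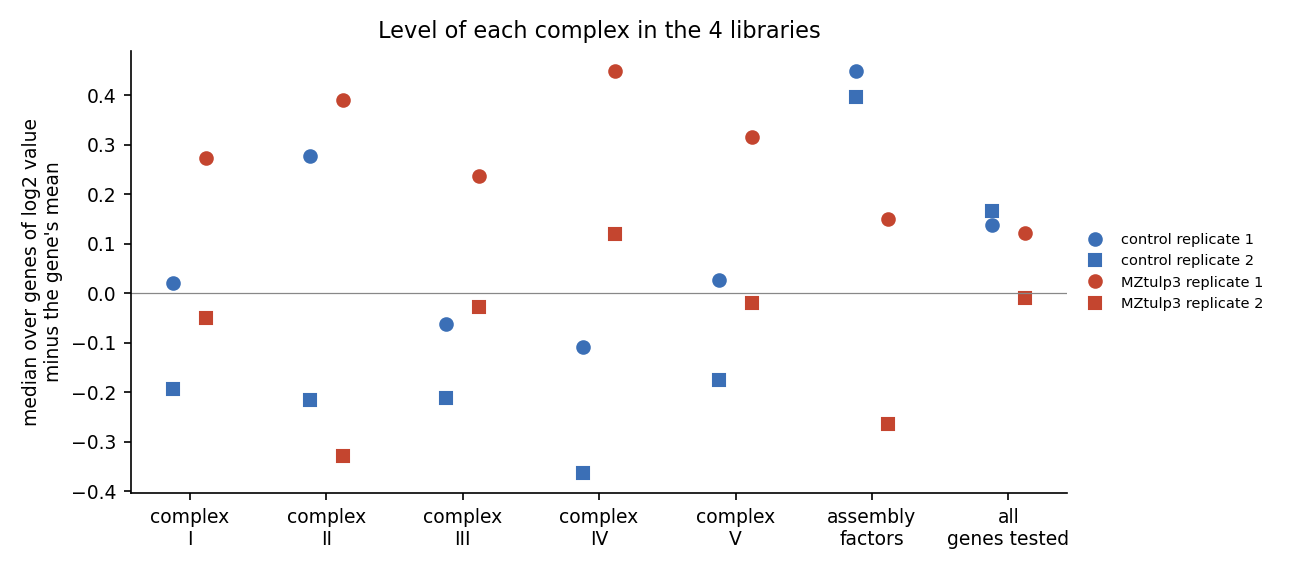
For each library (circle replicate 1, square replicate 2, blue control, red MZtulp3), the vertical axis gives the median over the genes of a complex of the log2 value minus the gene's mean, with the 46 kept assembly factors and all genes tested at the right. Both red points lie above both blue points for complexes III and IV only among the 5 complexes as grouped by symbol, where complex II includes its 4 assembly factors, and below both for the assembly factors and for all genes tested.

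Leaving out 1 library moved the size of the difference. The median over the 89 genes was 0.34 without control replicate 1, 0.14 without control replicate 2, 0.10 without MZtulp3 replicate 1 and 0.41 without MZtulp3 replicate 2, and 55 to 73 genes were above 0. When reads were scaled to those outside the 13 mitochondrially encoded genes instead of by size factor, the median of all genes tested moved from -0.09 to -0.29 and that of the 89 genes from 0.24 to 0.02, with 49 of 89 above 0 against 40.4% of all genes. By that scaling 15 of the 89 had both MZtulp3 libraries above both controls and 10 had both below, against 15.0% and 28.7% of all genes. Relative to the median of all genes, the 89 genes stood 0.33 higher with the size factors and 0.31 higher with the other scaling. With at least 10 in every library, the kept members stood 0.23 higher, and the median of all genes was 0.01. Without 1 library the members stood 0.18 (MZtulp3 replicate 1 left out) to 0.54 (control replicate 1 left out) higher. By that scaling the medians of complexes I to V, as grouped by symbol, were -0.07, -0.23, 0.20, 0.17 and 0.01. In this grouping those of complexes III and IV alone stood clear of 0 on the upper side. Over structural subunits the medians were -0.04, 0.33, 0.20, 0.15 and 0.05, so that complex II stood highest. Structural subunits leave out assembly factors, inhibitors and cox7a2l, and count the ndufa4 genes in complex IV.

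The medians of complexes I to V were 0.20, 0.21, 0.33, 0.78 and 0.31 without control replicate 1, and 0.08, -0.25, 0.26, 0.36 and 0.13 without control replicate 2. They were 0.05, -0.33, 0.09, 0.36 and 0.13 without MZtulp3 replicate 1, and 0.33, 0.31, 0.50, 0.57 and 0.35 without MZtulp3 replicate 2. As grouped by symbol, complex IV had the highest median under each of these, and that of complex II alone took both signs. Over structural subunits, complex II stood at 0.79 without control replicate 1 and 0.22 without control replicate 2. It stood at 0.57 without MZtulp3 replicate 1 and 0.57 without MZtulp3 replicate 2. Complex IV then stood at 0.42, 0.36, 0.25 and 0.54 in the same order, so it was not the highest throughout.

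The summed level of muscle genes followed the order of libraries seen in the per-library medians of the 89 genes, as did 4 of the 7 markers singly. It did not follow the order of the summed counts of the 89 genes. Those sums were 87304 and 71706 in control and 112828 and 90748.5 in MZtulp3 libraries, with MZtulp3 replicate 2 above control replicate 1. The summed normalized count of 7 muscle markers was 261257 and 114928 in control and 344758 and 214160 in MZtulp3 libraries, and 6 of the 7 were above 0, with a median of 0.53 that became -0.01 without control replicate 2. The exception was ttn.2, which encodes a titin, at 5723 and 15543 in control and 3643 and 3109 in MZtulp3 libraries (a difference of -1.49, SE 0.46, adjusted p = 0.379 by limma and 0.00827 by DESeq2). None of the 7 was at 0 in any library. Summed counts of 4 neuronal markers were 8283 and 13413 in control and 7586 and 5680 in MZtulp3 libraries. Of these markers 1 was above 0, elavl3, with a difference of 0.24. Markers of epidermis (5 of 5 above 0, summed 128639 to 176940 in control and 311056 to 426435 in MZtulp3 libraries) and of liver and yolk syncytial layer (5 of 5 kept above 0, summed 5396 to 5467 and 13095 to 15691) did not overlap between the groups in their sums. The liver gene ttr was at 0 in every library. Summed counts were 4288 to 7168 in control and 4082 to 12288 in MZtulp3 libraries for 4 erythroid markers, 56.8 to 362 and 267 to 286 for 3 heart markers, and 565 to 832 and 692 to 860 for 3 ionocyte markers. The part of tissue composition in the values of the respiratory chain genes was not tested, and in RNA of whole embryos fewer cells of a type and less RNA per cell cannot be told apart.

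**Figure D3:**
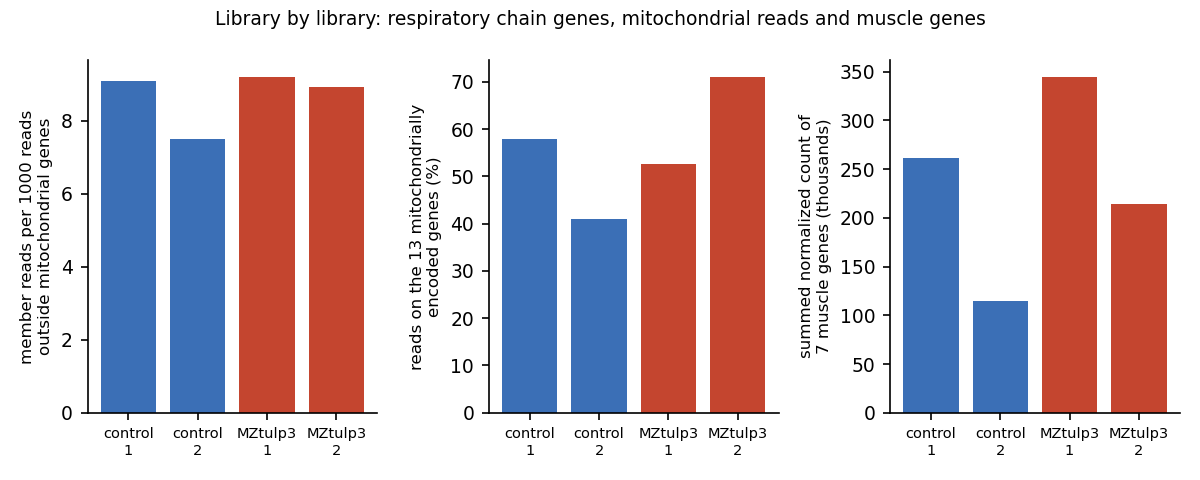
Bars give, for each of the 4 libraries (blue control, red MZtulp3), the reads on nuclear respiratory chain genes per 1000 reads outside the mitochondrially encoded genes, the percentage of reads on the 13 mitochondrially encoded genes, and the summed normalized count of 7 muscle genes, divided by 1000. Control replicate 2 is lowest in all 3 panels, at 7.48 member reads per 1000, 41.0% mitochondrial reads and a muscle sum of 114928, and control replicate 1 lies above MZtulp3 replicate 2 in the first and last.

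Complex I is the largest complex of the chain and has an L shape, with a matrix arm that oxidizes NADH and passes electrons to ubiquinone, and a membrane arm that pumps protons. Of the 38 genes, 26 were above 0 and 12 below, and no gene had an unadjusted p under 0.05. The 17 genes of the matrix arm had a median of 0.22, with 13 above 0, and the 18 genes of the membrane arm a median of 0.12, with 12 above 0. The 7 genes of core subunits, which carry the flavin and the iron-sulfur clusters or bind ubiquinone, had a median of 0.24 and the 28 genes of accessory subunits a median of 0.12. With scaling to reads outside the mitochondrial genes, the medians of the membrane arm and of the accessory subunits were below 0, both at -0.10. Those of the matrix arm and of the core subunits were then 0.004 and 0.017. Genes named throughout that fall outside the naming rule were chosen after their values were seen, to show the range within a group.

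The NADH module holds the site where NADH is oxidized, and 9 of its 10 genes were above 0, with a median of 0.24. With scaling to reads outside the mitochondrial genes, 5 of the 10 were above 0, with a median of 0.02. Without control replicate 2, 6 of the 10 were above 0. Normalized counts of ndufv1, which binds the flavin and NADH, were 1184 and 1247 in control and 1517 and 1829 in MZtulp3 libraries, a difference of 0.45 (SE 0.28, adjusted p = 0.549 by limma). Counts of ndufs4, an accessory subunit of this module in which human mutations cause Leigh syndrome, were 188 and 194 in control and 359.5 and 381 in MZtulp3 libraries. The 2 libraries of each group lay close together for ndufs4, with a difference of 0.95 (SE 0.50, adjusted p = 0.478 by limma). That gene kept this difference when any 1 library was left out, between 0.91 and 0.99. Its neighbour in the arm, ndufa12, counted 360.0 and 205 in control and 564 and 440.3 in MZtulp3 libraries. The iron-sulfur subunit ndufs1 counted 951 and 563 in control and 915 and 748 in MZtulp3 libraries and overlapped between groups, as did ndufs6 at 419.7 and 394 in control and 688 and 277 in MZtulp3 libraries. The remaining members of the module, ndufa2, ndufa6, ndufa7, ndufv2 and ndufv3, had differences from -0.02 to 0.41, and of these ndufv2 alone lay apart, at 368 and 274 in control and 432 and 412 in MZtulp3 libraries.

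The quinone module passes electrons to ubiquinone, and 4 of its 7 genes were above 0, with a median of 0.22. The core iron-sulfur subunits ndufs7 and ndufs8a stood on opposite sides of 0. Normalized counts of ndufs8a were 716 and 790.3 in control and 516 and 503 in MZtulp3 libraries, a difference of -0.56 (SE 0.35, adjusted p = 0.547 by limma), and those of ndufs7 were 409 and 442 in control and 757 and 568 in MZtulp3 libraries, a difference of 0.62 (SE 0.38). In both genes the libraries of one group lay apart from those of the other. The copy ndufs8b did not pass the minimum, with 2.64 in control replicate 2 and 0 in the other libraries. The genes ndufa5, ndufa9a, ndufa9b and ndufs3 had differences from -0.38 to 0.30, the lowest in ndufa9b, which counted 49.1 and 1.32 in control and 48.1 and 0 in MZtulp3 libraries.

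The membrane arm members that lay apart between groups were ndufb4, ndufc2 and ndufa8 upward and ndufb7 downward. Normalized counts of ndufb4 were 752 and 434 in control and 954 and 950.1 in MZtulp3 libraries, a difference of 0.73 (SE 0.39, adjusted p = 0.481 by limma), which was 0.34 if control replicate 2 was left out and 1.13 without control replicate 1. Counts of ndufc2 were 401 and 174 in control and 584 and 480.4 in MZtulp3 libraries, a difference of 1.00 (SE 0.53, adjusted p = 0.486 by limma), which was 0.40 without control replicate 2. Both genes were lowest in control replicate 2, and the MZtulp3 libraries differed by little in ndufb4. Counts of ndufb7 were 1340.1 and 1161 in control and 905 and 1021 in MZtulp3 libraries, a difference of -0.38 (SE 0.30), and those of ndufa8 were 456 and 438 in control and 531 and 682 in MZtulp3 libraries. The other 14 members of this arm overlapped between groups, with differences from -0.27 (ndufa11) to 0.44 (ndufb8).

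The ndufa4 genes carry a complex I name, but their mammalian counterpart is now known as a subunit of complex IV. Normalized counts of ndufa4a were 2065 and 2350.4 in control and 1724 and 1539 in MZtulp3 libraries, a difference of -0.43 (SE 0.27, adjusted p = 0.542 by limma), and those of ndufa4b were 2456 and 2648 in control and 2457 and 1511 in MZtulp3 libraries, a difference of -0.40 (SE 0.31, adjusted p = 0.632 by limma). Both copies were below 0. The difference of ndufa4b was -0.05 without MZtulp3 replicate 2 and -0.75 without MZtulp3 replicate 1, whereas that of ndufa4a lay between -0.53 and -0.34 without any 1 library. In ndufa4a the groups did not overlap, and in ndufa4b control replicate 1 and MZtulp3 replicate 1 stood at the same level. A further copy, ndufa4l2a, was at 0 in control replicate 1 and in MZtulp3 replicate 2 and at 35.7 and 57.3 in the other libraries, and ndufa4l2, at 0 in every library, did not pass the minimum. With the ndufa4 genes counted in complex IV and the assembly factors and inhibitors set aside, the medians were 0.18 for complex I (25 of 35 above 0), 0.55 for complex II (3 of 4), 0.42 for complex III (7 of 8), 0.33 for complex IV (14 of 17) and 0.26 for complex V (16 of 18).

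Complex II, succinate dehydrogenase, also works in the citric acid cycle and has 4 subunits. Normalized counts of sdhb, its iron-sulfur subunit, were 615 and 239 in control and 877 and 834 in MZtulp3 libraries, a difference of 1.15 (SE 0.51, adjusted p = 0.404 by limma), which was 0.47 if control replicate 2 was left out and 1.83 without control replicate 1. Counts of sdhc, a membrane anchor, were 469 and 316 in control and 664 and 809.7 in MZtulp3 libraries, a difference of 0.93 (SE 0.40, adjusted p = 0.398 by limma). In both genes the 2 MZtulp3 libraries lay above the controls. The flavoprotein gene sdha counted 599.8 and 454 in control and 627 and 550.0 in MZtulp3 libraries, a difference of 0.17 (SE 0.38, adjusted p = 0.903 by limma), and the other anchor, sdhdb, counted 891 and 636 in control and 969 and 449 in MZtulp3 libraries, a difference of -0.19 (SE 0.46, adjusted p = 0.914 by limma). Both overlapped between groups. The difference of sdha changed sign without control replicate 2 and under scaling to reads outside the mitochondrial genes, and that of sdhdb without control replicate 1 or MZtulp3 replicate 2. The copy sdhda did not pass the minimum, at 3.30 in control replicate 2 and 0 elsewhere.

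The 4 sdhaf genes also match the symbols and encode assembly factors, which help to insert the flavin and the iron-sulfur clusters and are no subunits of the finished complex. Their median was -1.16, with 1 of 4 above 0, and the median of complex II was 0.55 over its 4 subunits (0.22 without control replicate 2) against -0.01 over all 8 genes. Normalized counts of sdhaf4 were 138 and 227 in control and 68.7 and 56.7 in MZtulp3 libraries, and those of sdhaf2 were 141 and 134 in control and 26.3 and 211 in MZtulp3 libraries. Counts of sdhaf1 were 84.7 and 31.7 in control and 56.1 and 0 in MZtulp3 libraries and those of sdhaf3 20.2 and 11.2 in control and 48.1 and 7.08 in MZtulp3 libraries. The groups lay apart in sdhaf4 only, and sdhaf1 and sdhaf2 differed widely between the MZtulp3 replicates.

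Complex III passes electrons from ubiquinol to cytochrome c. Normalized counts of uqcrc2a, which encodes a core protein of the matrix side, were 907 and 780.4 in control and 1278 and 1754 in MZtulp3 libraries, a difference of 0.83 (SE 0.32, unadjusted p = 0.0345 and adjusted p = 0.379 by limma). Counts of its copy uqcrc2b were 668 and 584 in control and 649 and 627 in MZtulp3 libraries, a difference of 0.03 (SE 0.35, adjusted p = 0.988 by limma). The 2 copies thus differed by 0.80 in their log2 differences, and only uqcrc2a lay apart between groups. How reads shared by the copies were split was not examined. The other core protein gene, uqcrc1, counted 1186 and 1408 in control and 1164 and 986 in MZtulp3 libraries. Its difference was -0.27 (SE 0.30, adjusted p = 0.751 by limma), and -0.15 without control replicate 2 or MZtulp3 replicate 2. Among the genes of the complex matched by symbol it was the only one below 0. The cytochrome c1 gene cyc1, which the symbols do not match, was also below 0 (-0.27) and is not in the counts of complex III.

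Normalized counts of uqcrfs1, the Rieske iron-sulfur protein, were 1314 and 1161 in control and 2140.0 and 1325 in MZtulp3 libraries, a difference of 0.45 (SE 0.33, adjusted p = 0.614 by limma). The margin between MZtulp3 replicate 2 and control replicate 1 was narrow in this gene, and its difference was 0.10 without MZtulp3 replicate 1 and 0.79 without MZtulp3 replicate 2. Counts of uqcrh, the hinge protein that lies at cytochrome c1, were 1705 and 1136 in control and 2493 and 1447 in MZtulp3 libraries, a difference of 0.45 (SE 0.37, adjusted p = 0.654 by limma), with overlap between groups, and a difference of 0.06 without MZtulp3 replicate 1, 0.16 without control replicate 2, 0.74 without control replicate 1 and 0.84 without MZtulp3 replicate 2. The 4 small subunits uqcrb, uqcrh, uqcrq and uqcr10 were all above 0, with a median of 0.42, and all 4 overlapped between groups. Values of uqcrq ranged from 308 in MZtulp3 replicate 1 to 988 in MZtulp3 replicate 2, and those of uqcr10 from 13.5 to 142.

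Complex IV is cytochrome c oxidase, and 14 of its 15 genes by symbol were above 0, with 7 (46.7%) apart upward, against 20.0% of all genes. Among all genes with a mean of at least 1000 normalized counts, the share apart upward was 30.5%. With the ndufa4 genes included and cox7a2l set aside, 14 of 17 were above 0 and 7 (41.2%) lay apart upward. Normalized counts of cox8a, a small subunit of the membrane part, were 2108 and 1370.0 in control and 3369.7 and 3479.5 in MZtulp3 libraries. The difference was 1.01 (SE 0.30, unadjusted p = 0.0118 and adjusted p = 0.379 by limma). Over the other tests, pseudocounts, filters and scalings, with all 4 libraries, its adjusted p was 0.129 to 0.502. The MZtulp3 libraries differed from each other by less than the controls did. Counts of cox4i1, the largest nuclear subunit, were 2177 and 1679 in control and 2891 and 3195 in MZtulp3 libraries, a difference of 0.67 (SE 0.27, unadjusted p = 0.0427 and adjusted p = 0.385 by limma). Both genes lay apart between groups and stayed above 0 without any 1 library, between 0.70 and 1.32 for cox8a and between 0.48 and 0.86 for cox4i1.

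Normalized counts of cox5ba, one of the subunits on the matrix side, were 1274 and 827 in control and 2533 and 1321 in MZtulp3 libraries, a difference of 0.83 (SE 0.41, adjusted p = 0.450 by limma), and became 0.36 in difference without MZtulp3 replicate 1. The groups lay apart in cox6c at 566 and 539 in control and 804 and 943 in MZtulp3 libraries and in cox7a2a at 823 and 540.1 in control and 846 and 1026 in MZtulp3 libraries. They also lay apart in cox5ab, at 738 and 716 in control and 878 and 865 in MZtulp3 libraries, where the replicates lay close together and the difference was small (0.26, SE 0.32). Its copy cox5aa counted 1771 and 1552 in control and 2342 and 1701 in MZtulp3 libraries, with a difference of 0.27, so the 2 copies differed by 0.01 on the log2 scale. The remaining subunits cox6a1, cox6b1, cox6b2 and cox7c overlapped between groups, with differences from 0.13 to 0.39.

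The 3 cox4i genes encode versions of the same subunit and had the widest spread of any family of copies, 3.21 on the log2 scale. Normalized counts of cox4i1l were 0 and 41.6 in control and 117 and 83.8 in MZtulp3 libraries, a difference of 3.43 (SE 1.94, adjusted p = 0.508 by limma) that was 2.24 to 4.44 under the other settings and 1.21 to 5.66 without 1 library. Counts of cox4i2, the version that is induced by low oxygen in mammals, were 291 and 82.5 in control and 354 and 93.2 in MZtulp3 libraries, a difference of 0.23 (SE 0.95, adjusted p = 0.957 by limma). In cox4i2 replicate 1 was high and replicate 2 low in both groups, and the difference was -0.67 without control replicate 2 and -0.72 without MZtulp3 replicate 1. The 0 in control replicate 1 sets the size of the cox4i1l value.

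Subunit forms that are known from striated muscle in mammals did not pass the minimum. The form cox6a2 was at 27.1 in control replicate 2 and 0 elsewhere, cox7a1 was at 0 in every library, and cox8b was at 17.2 in MZtulp3 replicate 1 and 0 elsewhere. The genes cox6a2 and cox8b stood just outside the minimum, and cox5b2, with 19.3 in control replicate 1, 17.7 in MZtulp3 replicate 2 and 0 in the others, stood just inside it. A count of 0 allowed at most 1.98 to 3.54 normalized counts in a library, the value of 3 reads, which covers counting error only. The supercomplex factor cox7a2l, which links complexes III and IV in mammals, counted 369 and 123 in control and 639 and 267 in MZtulp3 libraries, with a spread between replicates as wide as the difference of 0.94 (SE 0.71).

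**Figure D4:**
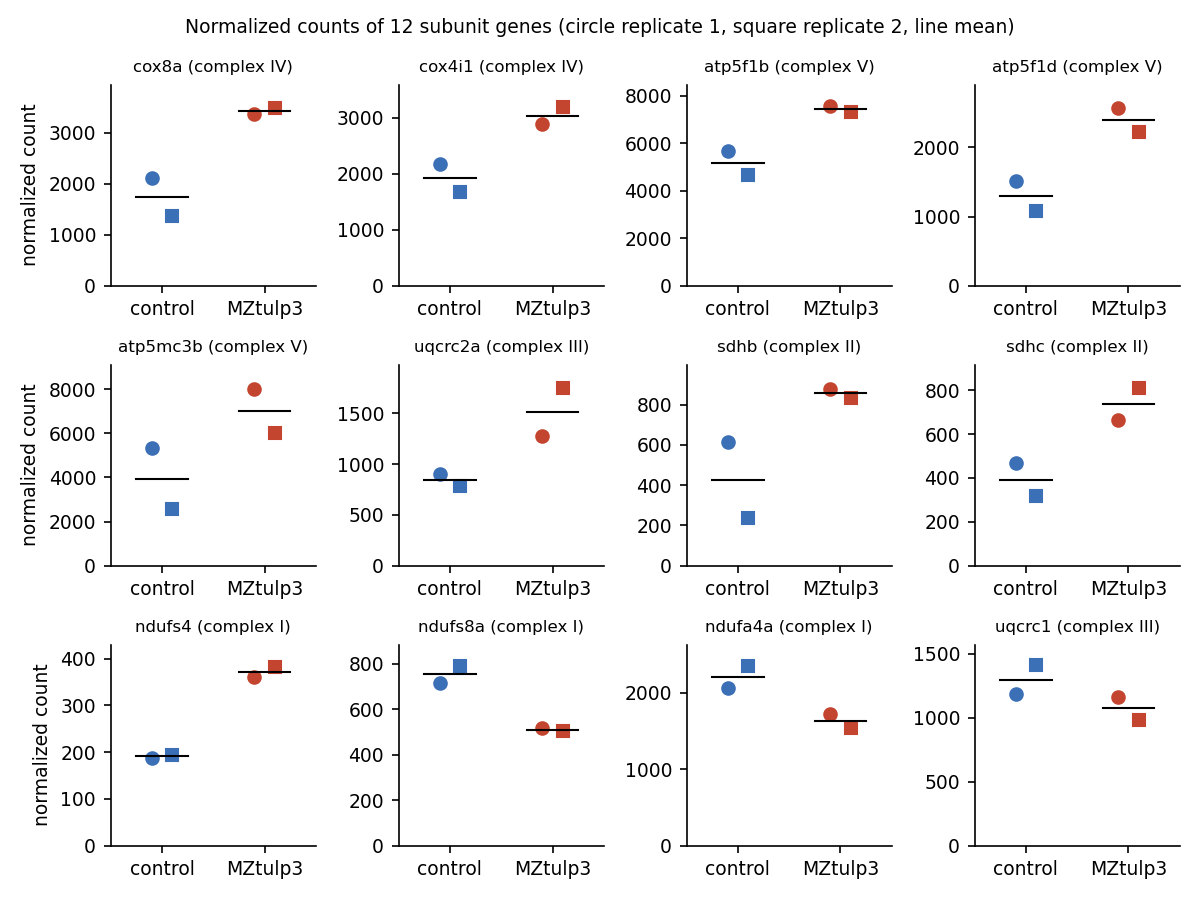
Each panel gives the normalized counts of 1 gene in the 4 libraries (circle replicate 1, square replicate 2, blue control, red MZtulp3) on a linear axis from 0, with the group mean as a line. The first 9 genes lie higher in both MZtulp3 libraries than in both controls, cox8a from 2108 and 1370.0 to 3369.7 and 3479.5, and the last 3 lie lower, ndufs8a from 716 and 790.3 to 516 and 503.

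Complex V joins the catalytic F1 head in the matrix, a rotor with a ring of c subunits in the membrane and a peripheral stalk that holds the head still. The 5 F1 genes had a median of 0.58, with 4 above 0, and stayed between 0.37 and 0.89 without any 1 library. Normalized counts of atp5f1b, the beta subunit that holds the catalytic sites, were 5672 and 4657 in control and 7564 and 7314 in MZtulp3 libraries, a difference of 0.53 (SE 0.25, adjusted p = 0.428 by limma). Counts of atp5fa1, the alpha subunit, were 4633 and 3429 in control and 7832 and 5158 in MZtulp3 libraries, a difference of 0.67 (SE 0.31, adjusted p = 0.421 by limma), which was 0.37 without MZtulp3 replicate 1. Counts of atp5f1d, the delta subunit of the central stalk, were 1508 and 1073 in control and 2571 and 2226 in MZtulp3 libraries, a difference of 0.91 (SE 0.30, unadjusted p = 0.0182 and adjusted p = 0.379 by limma). In these 3 genes both MZtulp3 libraries lay above both controls.

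The gamma subunit gene atp5f1c counted 3290.5 and 1958 in control and 4385 and 3278 in MZtulp3 libraries, a difference of 0.58 (SE 0.33), with MZtulp3 replicate 2 just below control replicate 1. The epsilon subunit gene atp5f1e counted 707 and 781 in control and 736 and 459 in MZtulp3 libraries, a difference of -0.35 (SE 0.38, adjusted p = 0.748 by limma), the only F1 gene below 0. It overlapped between groups and was -0.01 without MZtulp3 replicate 2.

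The 3 genes of the c ring were above 0, with a median of 0.24. Normalized counts of atp5mc3b were 5318 and 2574 in control and 8013 and 6003 in MZtulp3 libraries, a difference of 0.91 (SE 0.38, unadjusted p = 0.0495 and adjusted p = 0.391 by limma), and 0.38 without control replicate 2. Counts of atp5mc3a were 1308 and 1142 in control and 1428 and 1466 in MZtulp3 libraries and those of atp5mc1 2213 and 1488 in control and 1997 and 2097 in MZtulp3 libraries, with differences of 0.24 and 0.17. The groups overlapped in atp5mc1 only. How the reads of such copies were split was not examined.

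The peripheral stalk genes atp5pb, atp5pd, atp5pf and atp5po were above 0 in 4 of 4 cases, with a median of 0.17, and overlapped between groups in every case. The smallest difference was that of atp5pf, with 938 and 1087 in control and 1067 and 961 in MZtulp3 libraries, and the largest that of atp5po, with 2328 and 2532 in control and 3962 and 2519 in MZtulp3 libraries. Their median was -0.01 without MZtulp3 replicate 1 and -0.05 under scaling to reads outside the mitochondrial genes. The genes of the small membrane subunits had a median of 0.16, with 5 of 6 above 0, which was -0.06 under that scaling and -0.15 without MZtulp3 replicate 1. Among them the groups lay apart upward in atp5mj, at 1491 and 1548 in control and 1832 and 1872 in MZtulp3 libraries, and overlapped in atp5l, atp5md, atp5mf and atp5meb.

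The 2 copies of subunit e had opposite signs. Normalized counts of atp5mea were 284 and 429 in control and 254 and 9.44 in MZtulp3 libraries, a difference of -2.70 (SE 1.41, adjusted p = 0.478 by limma), which was -0.45 without MZtulp3 replicate 2. Counts of atp5meb were 1601 and 1482 in control and 2028 and 1372 in MZtulp3 libraries, a difference of 0.11 (SE 0.31, adjusted p = 0.924 by limma). The value of atp5mea rests on 8 reads in MZtulp3 replicate 2. The inhibitor genes atp5if1a and atp5if1b, whose products stop the synthase from running backwards and splitting ATP, counted 446 and 870.2 in control and 641 and 425 in MZtulp3 libraries and 268 and 251 in control and 168 and 327 in MZtulp3 libraries. Their differences were -0.25 (SE 0.46, adjusted p = 0.870 by limma) and -0.14 (SE 0.57), both with overlap between groups.

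Summed over the genes of a complex, normalized counts were 14759 and 12024 in control and 21668 and 17245 in MZtulp3 libraries for complex IV, and 38944 and 30210 against 52775 and 40717 for complex V. They were 6848 and 6408 against 9116 and 7938 for complex III, and 2958 and 2052 against 3337 and 2918 for complex II. For complex I they were 23796 and 21046 against 25949 and 21931, with control replicate 1 above MZtulp3 replicate 2, as in complex II. As shares of the reads outside the mitochondrial genes, the sum of complex IV was 1.54 and 1.25 per 1000 reads in control and 1.77 and 1.70 in MZtulp3 libraries, that of complex III was 0.713 and 0.668 against 0.743 and 0.781, and that of complex I was 2.48 and 2.20 against 2.12 and 2.16. On that scale complexes III and IV lay higher and complex I lower in both MZtulp3 libraries. The groups overlapped on it in complex V, at 4.06 and 3.15 in control and 4.30 and 4.01 in MZtulp3 libraries. They also overlapped in complex II, at 0.308 and 0.214 against 0.272 and 0.287. Over structural subunits, with ndufa4 counted in complex IV (a grouping of the sums added after they were seen), the sum of complex I was 2.01 and 1.67 per 1000 reads in control and 1.77 and 1.86 in MZtulp3 libraries, and overlapped. That of complex IV was then 1.970 and 1.77 against 2.06 and 1.972, so that control replicate 1 and MZtulp3 replicate 2 were nearly equal.

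The other genes of the pathway were taken from lists. The 13 subunits encoded by mitochondrial DNA were above 0 in 12 cases, with a median of 0.74, and both MZtulp3 libraries lay above both controls for 3 of the 13 (23.1%, against 20.0% of all genes). Their per-library medians were 0.04 and -0.83 in control and -0.02 and 0.75 in MZtulp3 libraries, so control replicate 1 and MZtulp3 replicate 1 were nearly equal. The only one below 0 was ATP8, at 503 and 966 in control and 388 and 708 in MZtulp3 libraries. The 3 genes apart upward were COX1, COX3 and CYTB. By limma the smallest p was that of ND4L, a complex I subunit, with 27492 and 20299 in control and 26732 and 43420 in MZtulp3 libraries. Its difference was 0.53 (SE 0.35, adjusted p = 0.574 by limma). By DESeq2 the smallest adjusted p was that of CYTB (0.0550 by DESeq2, 0.682 by limma), with a difference of 1.19 (SE 1.07). The mitochondrially encoded genes thus did not order the libraries as the nuclear genes did.

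The mobile carrier between complexes III and IV went the other way from the complexes. Normalized counts of cycsb, which encodes cytochrome c, were 3103 and 3257 in control and 2162 and 1767 in MZtulp3 libraries, a difference of -0.70 (SE 0.26, unadjusted p = 0.0307 and adjusted p = 0.379 by limma). Those of cyc1, the cytochrome c1 of complex III, which the symbols do not match, were 1679 and 1301 in control and 1389 and 1076 in MZtulp3 libraries (a difference of -0.27, SE 0.31). The groups lay apart in cycsb and overlapped in cyc1.

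Assembly factors, the proteins that build the complexes and load them with copper, heme and iron-sulfur clusters, stood mostly below 0. The difference was above 0 for 5 of 16 kept genes of complex I assembly (median -0.74), 2 of 6 of complex III (-0.31), 7 of 21 of complex IV (-0.71) and 1 of 3 of complex V (-0.53). In complex IV assembly 5 genes lay apart upward (cox10, cox14, cox15, cox17 and coa5) and 5 downward. Its median was -0.93 with scaling to reads outside the mitochondrial genes and -0.13 with at least 10 in every library. It was -0.46 without control replicate 1, -0.61 without control replicate 2, -0.17 without MZtulp3 replicate 1 and 0.02 without MZtulp3 replicate 2. Pooled after these values were seen, 15 of 46 were above 0, with a median of -0.66, and 0 passed the threshold by limma, DESeq2, edgeR or limma-voom. At an unadjusted p under 0.05, 0 were higher and 6 lower, against 4.82% and 7.94% of all genes. Both MZtulp3 libraries lay below both controls for 11 of the 46 (23.9%) and above both for 6, against 23.3% and 20.0% of all genes. The pooled median was -0.05, with 22 of 46 above 0, without MZtulp3 replicate 2, the library with the fewest reads outside the mitochondrial genes.

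The assembly genes were less abundant than the subunits, with a median mean of 104 normalized counts against 631, and the median coefficient of variation between replicates was 36.5% in control and 64.2% in MZtulp3 libraries, against 21.1% and 22.4% for the subunits and other members. Normalized counts of atpaf1, a chaperone that assembles F1, were 435 and 222 in control and 75.6 and 29.5 in MZtulp3 libraries (a difference of -2.66, SE 0.89, unadjusted p = 0.0200 and adjusted p = 0.379 by limma). Those of lyrm7, which loads the Rieske protein, were 360.0 and 185 in control and 14.9 and 85.0 in MZtulp3 libraries (a difference of -2.76, SE 1.12, adjusted p = 0.386 by limma). In both genes the groups lay apart.

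The complex IV factor coa4 had 38.5 and 56.1 normalized counts in control and 0 in both MZtulp3 libraries, at least 13.6-fold lower against a floor of 3 reads per library (adjusted p = 0.379 by limma). The complex I factor ndufaf4 had 20.2 and 42.9 in control and 0 in both MZtulp3 libraries, at least 9.05-fold lower (adjusted p = 0.379 by limma), and 12.3-fold without control replicate 1 or 5.80-fold without control replicate 2. These bounds cover counting error only. Among 13 kept regulators of mitochondrial biogenesis, 4 were above 0, with a median of -0.23. The smallest p was that of esrrga, an estrogen-related receptor, with 271 and 581 in control and 200.4 and 85.0 in MZtulp3 libraries (a difference of -1.59, SE 0.69, adjusted p = 0.401 by limma). No gene of these lists passed the threshold by limma, DESeq2, edgeR or limma-voom.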

How the data were processed

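Whole zebrafish embryos of 2 dpf gave 2 control and 2 MZtulp3 RNA-Seq libraries. Per the study's methods, reads were processed with nf-core/rnaseq 3.18.0 (TrimGalore, STAR, RSEM, genome GRCz10), and values were normalized with DESeq2 1.42.1. The per-library signal values that the authors deposited are named counts, but they are reads divided by DESeq2's size factors: 100% were whole multiples of 1 constant per library (tolerance 0.01). Reads recovered in this way were used for the count tests. The authors also deposited 4 columns of regularized log values and columns of their own comparison (fold changes and p-values), which were not used.

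Genes with at least 10 normalized counts in at least 2 libraries were tested with limma 3.58.1 (R 4.3.3), with a trend in the variance, on log2(normalized count + 2), with Benjamini-Hochberg adjustment over all 14674 genes. This replaced a count test because the values are no counts. Alternatives were DESeq2 1.42.0, edgeR 4.0.16 and limma-voom on recovered reads, other pseudocounts, scalings and filters, structural subunits alone, a term for the replicate number and leaving out each library. The tests were also run on simulated counts with known changes, at the spread of these data and at a smaller spread. The outcome is not given here, so that run does not show how many real changes the tests would miss. No strand or multimapping setting was given in the sources used here.

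Members named were the complex II subunits, in each other complex the 3 genes with the smallest p in each direction (mean of at least 50), the most abundant gene of each complex, calls past the threshold, the 3 families of copies with the widest spread, and genes near 0 in 1 group. From other lists, the gene with the smallest p was named. Members and lists were chosen with earlier results of these data known. Promoter and protein sequences were not used here, and several members of the membrane arm of complex I are not reported by name. Recovered reads on genes numbered 22589725 to 29735214 per library. The SE and p-values of limma combine a gene's own spread between libraries with a variance trend over genes of similar level. A gene's own replicates therefore set them only in part. The libraries are labelled biological replicates, and their embryos were not described further.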

Additional observations from a re-analysis of the deposited data

How the results depend on the processing

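No member passed an adjusted p of 0.05 under any of the 13 other settings or without any 1 library. Scaling to reads outside the mitochondrial genes moved the median of the members from 0.24 to 0.023, of complex I to -0.065, of complex III to 0.20, of complex IV to 0.17 and of complex V to 0.0091, and the genes with both MZtulp3 libraries above or below both controls to 15 and 10. It turned sdha to -0.048, uqcrc2b to -0.19 and atp5meb to -0.10. Over structural subunits alone, complex II stood at 0.55. Without 1 library, the medians ranged from 0.10 to 0.41 for all members, 0.05 to 0.33 for complex I, -0.33 to 0.31 for complex II, 0.088 to 0.50 for complex III, 0.36 to 0.78 for complex IV and 0.13 to 0.35 for complex V. Genes apart upward then numbered 34 to 56 and downward 12 to 28, since 3 libraries separate more easily. The shares of all genes apart without 1 library are not given here, so these counts cannot be set against a background. Of the 28 named members, 6 changed sign without 1 library: sdha (-0.030 to 0.37), sdhdb (-0.74 to 0.36), uqcrc2b (-0.067 to 0.13), cox4i2 (-0.72 to 1.18), atp5if1a (-0.74 to 0.23) and atp5meb (-0.17 to 0.40). The cause was not tested.

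Over all genes, 339 were called by DESeq2, 13 by limma-voom, 112 with at least 10 in every library and 329 with the replicate block, against 0 by limma. The deviations of same-numbered libraries correlated at -0.003, so numbers were not taken to pair the libraries, and 0 members were called with the block. The median of the assembly factors was -0.87 with the scaling to reads outside the mitochondrial genes, about -0.31 by DESeq2 and edgeR, and -0.96 to -0.05 without 1 library. This pooled list was added after the values were seen. Most members had means over 100 normalized counts (82 of 89), and 2 libraries per group limit the precision of every value.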
